A study of Homo sapiens with 6 samples.

Results

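Immortalization and pre-transformation of BJ fibroblasts was examined by comparing gene expression in BJEL cells with that in their parental BJ cells, over 18417 genes on 4 of the study's 6 arrays. BJ are primary human foreskin fibroblasts, cultured without selection. BJEL derive from BJ by introduction of hTERT, the catalytic component of telomerase, and of the SV40 early region, which encodes the large T and small t antigens, and they were grown with G-418 and hygromycin. The effects of hTERT, of each antigen and of the drugs cannot be told apart in this design. Each line is represented by 2 arrays named replicates 1 and 2, stated to be biological replicates. The sources used here do not say whether BJEL is 1 clone or at which passages the cells were taken. The other 2 arrays, of BJELM cells, entered only as a further estimate of the spread between replicates; BJELM are BJEL cells with an added MYC-ER fusion, grown with puromycin and 4-hydroxytamoxifen as well.

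The products introduced at this step have well-studied targets. Telomerase adds telomeric repeats to chromosome ends and lets cells divide beyond their normal lifespan. Large T binds the RB family of pocket proteins, which hold E2F transcription factors in check, while small t displaces regulatory subunits of the phosphatase PP2A. Genes of DNA replication are E2F targets, and many mitotic genes carry a cell cycle homology region, the CHR, that is bound by the DREAM repressor complex and by its activating counterpart. Cells also hold sensors of foreign or misplaced nucleic acid, which lead to interferon production and to transcription from interferon-stimulated response elements, the ISRE. Dermal fibroblasts are known for secreting collagen, elastic fibers and proteoglycans.

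The signals are log2 values, so that a difference of 1 is a 2-fold change. Array medians lay between 7.18 and 7.27. Pearson's r across genes was 0.9949 between the BJ arrays and 0.9944 between the BJEL arrays, against 0.9628 to 0.9737 between the lines; genes are not independent replicates, and precision is limited by how few arrays there are. The median gene differed by 0.112 between the BJ replicates, by 0.12 between the BJEL replicates and by 0.168 between the means of the lines, and the median signed difference of all genes was -0.0175. Below, a gene is said to have risen or fallen where limma gave an adjusted p under 0.05 and the lines differed 2-fold or more, differences are BJEL minus BJ on the log2 scale ± SE with n = 2 arrays per line, and medians of gene lists are medians of this difference over the measured members.

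By this criterion 954 genes differed between BJEL and BJ, 5.18% of those tested, with 533 rising (2.89%) and 421 falling (2.29%). The BJ and BJEL values did not overlap for any of them. The criterion itself favors groups that lie apart, and the share of all genes without overlap was not counted, so this adds no support. The methods' t-test, the one for unequal variances that the study names, called 465 of the 954 at an unadjusted p under 0.05 and the same fold minimum, and 0 after Benjamini-Hochberg adjustment. A further 2274 genes had an adjusted p under 0.05 with a smaller change. The rises were at least 4-fold for 73 genes and at least 16-fold for 11, and the falls for 106 and 9. In 222 of the rises the BJ mean lay below 7.26, the median level of all genes, and in 181 of the falls the BJEL mean did. Fits that left out 1 array were run as well. Leaving out either BJELM array gave the same fit as BJ and BJEL alone, since a single array of a line adds no spread, so these are not separate checks. When each of the 6 arrays was left out in turn, 604 genes were called in the same direction in every fit (3.28%), 330 of them rising and 274 falling, and unless stated otherwise the genes named below are among these.

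**Figure D1:**
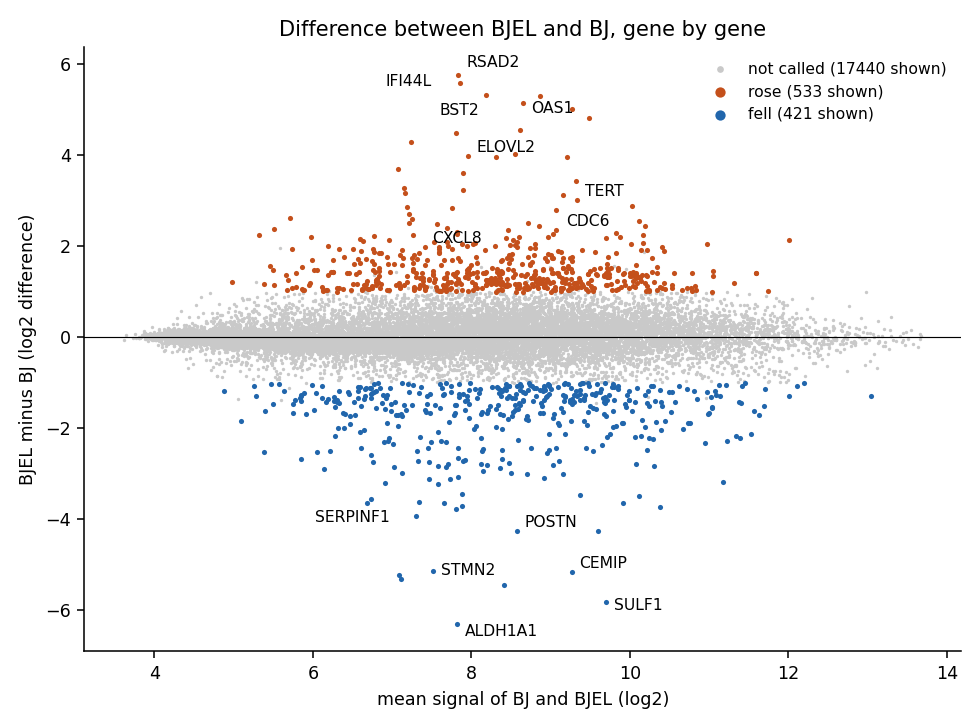
Difference between BJEL and BJ (vertical axis, log2) against the mean signal of the 4 arrays (horizontal axis, log2) for each gene except Y-linked genes and XIST, with 1 point per gene and called genes in color. Rises reach 5.77 for RSAD2 and falls reach -6.31 for ALDH1A1, while most genes lie near 0.

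The introduced hTERT was examined first. TERT had signals of 7.77 and 7.88 on the BJ arrays and 10.71 and 10.97 on the BJEL arrays, without overlap, and it rose by 3.02 ± 0.11 (adjusted p = 0.000156). Transcripts of the introduced and of the resident gene were not separated here. Of the 14 measured genes of telomerase and telomere protection 2 rose (median 0.36), the other being ACD, the shelterin subunit TPP1, which rose by 1.06 ± 0.16 (adjusted p = 0.00835), though not without BJ replicate 1 or BJEL replicate 1 (adjusted p = 0.0509 and 0.0593).

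Among the 11 measured partners of large T, RBL1, the pocket protein p107, had signals of 7.74 and 8.04 on the BJ arrays and 9.66 and 9.73 on the BJEL arrays and rose by 1.80 ± 0.12 (adjusted p = 0.000734). BUB1, a spindle checkpoint kinase bound by large T, rose by 1.08 ± 0.13 (adjusted p = 0.00347), but without BJ replicate 1 it stood at 0.92, under the fold minimum. RB1 itself differed by 0.48 ± 0.10 (adjusted p = 0.0214), below the fold minimum. None of the 16 measured PP2A subunits was called by limma or by the methods' t-test (median 0.03), although 3 had an unadjusted p under 0.05, and the largest differences were those of the regulatory subunits PPP2R2A (0.50 ± 0.22, adjusted p = 0.197) and PPP2R2D (0.48 ± 0.08, adjusted p = 0.0107). MYC differed by 0.63 ± 0.21 (adjusted p = 0.0994) and was not called.

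Factors that govern the passage from G1 to S phase rose in part. E2F7 and E2F8, the atypical E2F repressors that accumulate in S phase, rose by 1.65 ± 0.20 (adjusted p = 0.00357) and 1.34 ± 0.16 (adjusted p = 0.00352), and they were the only called members among 10 E2F and DP factors (median 0.53). CDC25A, the phosphatase that activates CDK2, had signals of 6.94 and 7.04 on the BJ arrays and 9.27 and 8.81 on the BJEL arrays and rose by 2.05 ± 0.16 (adjusted p = 0.00118), and CDK2 rose by 1.05 ± 0.10 (adjusted p = 0.00177). Cyclin D1 (CCND1), which drives phosphorylation of RB, fell by 1.19 ± 0.11 (adjusted p = 0.00186). The cyclin E gene CCNE2 also rose (1.51 ± 0.24, adjusted p = 0.00998), though not without BJEL replicate 2 (adjusted p = 0.0568), and without BJ replicate 2 the G1 cyclins and kinases that rose numbered 5 in place of 3.

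Called CDK inhibitors differed in direction. CDKN2A, whose product p16 blocks CDK4 and which shares its locus with ARF, had signals of 8.18 and 8.21 on the BJ arrays and 10.24 and 9.91 on the BJEL arrays and rose by 1.88 ± 0.15 (adjusted p = 0.00119). CDKN1A (p21), an inhibitor of CDK2, fell, with signals of 10.98 and 10.72 in BJ and 9.43 and 8.50 in BJEL, but was not called when any of the 4 arrays was left out, with adjusted p-values from 0.0613 to 0.173. The DREAM complex and its MuvB core had 4 of 9 members that rose (median 0.70): the core subunit LIN9 by 1.63 ± 0.16 (adjusted p = 0.00219), LIN52 by 1.22 ± 0.15 (adjusted p = 0.00416), and the B-MYB and A-MYB activators MYBL2 and MYBL1 by 1.55 ± 0.20 (adjusted p = 0.00451) and 1.41 ± 0.09 (adjusted p = 0.000734).

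Most genes that duplicate DNA rose. Of the 31 measured genes of origin licensing and firing, 22 rose (median 1.38). In origin recognition ORC1 rose by 1.93 ± 0.17 (adjusted p = 0.00148), and in helicase loading CDC6 had signals of 8.43 and 8.95 on the BJ arrays and 11.02 and 10.92 on the BJEL arrays. In helicase activation the GINS subunits GINS1 and GINS3 rose by 1.87 ± 0.15 (adjusted p = 0.00132) and 1.99 ± 0.14 (adjusted p = 0.000877) and the DBF4-dependent kinase CDC7 by 1.93 ± 0.22 (adjusted p = 0.00326). All of MCM2 to MCM7, the subunits of the helicase ring, were called, from 1.02 for MCM5 to 1.47 for MCM3, though MCM5 was not called without BJ replicate 1 or BJEL replicate 1, MCM6 not without BJEL replicate 1 and MCM7 not without BJ replicate 1. At the fork 20 of 32 genes rose (median 1.14), among them the checkpoint mediator CLSPN, which rose by 1.97 ± 0.28 (adjusted p = 0.00642), the clamp loader subunit RFC3 by 1.77 ± 0.15 (adjusted p = 0.00137) and WDHD1, which couples polymerase alpha to the helicase, by 1.76 ± 0.19 (adjusted p = 0.00266). The methods' t-test called 9 of the 31 and 7 of the 32 as rising. The exception at the fork was POLD4, the small subunit of polymerase delta that is degraded in S phase and after damage, which fell by 1.27 ± 0.15 (adjusted p = 0.00377).

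Chromatin assembly factors rose likewise, with 7 of 10 called (median 1.14), including CHAF1B of the assembly factor CAF-1, which rose by 1.56 ± 0.15 (adjusted p = 0.00215), and the chaperone ASF1B by 1.40 ± 0.15 (adjusted p = 0.00255). Of 57 measured replication-dependent histone genes 21 rose (median 0.86), but 8 did so without BJEL replicate 1 and 7 by the methods' t-test. Histone genes are near-identical copies, so their probe sets may share signal and single members are uncertain; H2AC12, H2BC3 and H2AC17 stood highest among those called in every fit, at 1.43 ± 0.22, 1.41 ± 0.17 and 1.37 ± 0.16. Of 12 genes of deoxynucleotide supply 1 rose (8.33%, against 2.89% of all genes, with a median of 0.64). The gene that rose was SAMHD1, a dNTP hydrolase that is also an antiviral factor, with signals of 8.93 and 8.74 on the BJ arrays and 11.74 and 11.04 on the BJEL arrays and a difference of 2.55 ± 0.22 (adjusted p = 0.00155). RRM2B, a reductase subunit induced by DNA damage, fell by 1.17 ± 0.23 (adjusted p = 0.0198), though in no fit that left out a BJ or BJEL array (adjusted p from 0.0527 to 0.116), and without BJ replicate 2 the list had 4 rises.

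Repair genes that act at replication forks rose as well. In homologous recombination and the Fanconi anemia pathway 18 of 29 genes rose (median 1.23), 5 of them by the methods' t-test. EXO1, the nuclease of end resection, rose by 2.04 ± 0.15 (adjusted p = 0.000976). XRCC2, a recombination protein, rose by 1.97 ± 0.21 (adjusted p = 0.00269), the tumor suppressor BRCA1 by 1.82 ± 0.15 (adjusted p = 0.00129) and its partner BARD1 by 1.61 ± 0.12 (adjusted p = 0.00113). Among 15 checkpoint kinases and adaptors the 3 that rose were the adaptor MDC1, the CDK1-inhibiting kinase PKMYT1 and the phosphatase CDC25C, by 1.26 to 1.31, and 5 rose without BJEL replicate 2. In mismatch and base excision repair 3 of 17 rose (median 0.34). NEIL3, a glycosylase of S-phase cells, rose by 1.51 ± 0.17 (adjusted p = 0.00329), while UNG and PARP2, at 1.03 and 1.18, were under the fold minimum without BJ replicate 1, which left 1 call, and UNG was so without BJEL replicate 1 too.

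Mitotic genes rose, many of them close to the fold minimum. Of the 37 kinetochore and spindle checkpoint genes 24 rose (median 1.13), of 18 mitotic kinesins 13 (median 1.12), of 20 mitotic kinases, cyclins and ubiquitin ligases 9 (median 0.92) and of 22 condensin and cohesin genes 6 (median 0.76). The methods' t-test called 6, 5, 5 and 3 of them. The limma counts depended on BJ replicate 1, without which 14 kinetochore genes and 5 kinesins were called. On that array all but 7 of the 37 kinetochore genes and all 18 kinesins read lower than on BJ replicate 2, by medians of 0.32 and 0.31, whereas the median of all genes was higher on BJ replicate 1 by 0.03.

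PLK4, the kinase that sets centriole number, had signals of 8.01 and 8.56 on the BJ arrays and 9.92 and 10.11 on the BJEL arrays and rose by 1.73 ± 0.18 (adjusted p = 0.00258). CENPQ, of the inner kinetochore, rose by 1.68 ± 0.11 (adjusted p = 0.000734), the checkpoint kinase TTK by 1.52 ± 0.14 (adjusted p = 0.00173) and the centromere protector SGO1 by 1.45 ± 0.19 (adjusted p = 0.00498). Among motor proteins KIF15, which holds spindle poles apart, rose by 1.49 ± 0.13 (adjusted p = 0.00143), and KIF2C, a microtubule depolymerase, by 1.40 ± 0.13 (adjusted p = 0.0019). The condensin subunits NCAPH and NCAPG rose by 1.52 ± 0.11 (adjusted p = 0.000976) and 1.43 ± 0.13 (adjusted p = 0.00186), and CDCA5 (sororin), which keeps sister chromatids joined, by 1.64 ± 0.12 (adjusted p = 0.001). ESPL1, the separase that parts them, rose by 1.41 ± 0.18 (adjusted p = 0.00494).

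The proximal promoters of the genes that rose were set beside these groups, since E2F sites and the CHR are the elements through which pocket proteins and DREAM are known to act. RefSeq promoter sequence of GRCh38.p14 was matched for 14237 of the genes tested. Both strands of the 250 bases before each gene start were searched for the E2F site in the forms TTTCCCGC, TTTCGCGC, TTTGCCGC and TTTGGCGC and for the CHR, TTTGAA. An E2F site was present in 3.75% of all promoters, in 9.93% of those of genes that rose and in 2.24% of those that fell; among the 62 genes of the replication lists that rose it was present in 14 (22.6%). A CHR was present in 10.6% of all promoters, 16.3% of those that rose, 12.5% of those that fell and 14 of the 44 mitotic genes that rose (31.8%). The matches describe letters in a window and show no binding. List members that did not rise were not counted apart, so the shares of the lists do not tell rising from list membership.

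Promoters with an E2F site are shown for RBL1, CDC25A, RFC3 and HELLS, a chromatin helicase of S phase that rose by 1.49 ± 0.12 (adjusted p = 0.00134). Each is the 150 bases before the gene start, 5′ to 3′ along the gene, with the site in capitals on either strand, and the site of CDC25A starts at -44 and that of RFC3 at -55 counted from the gene start.
RBL1 chr20:37095998-37096147 (minus strand): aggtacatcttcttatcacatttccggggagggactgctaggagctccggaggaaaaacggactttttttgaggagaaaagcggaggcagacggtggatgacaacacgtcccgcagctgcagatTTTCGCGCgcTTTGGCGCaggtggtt
CDC25A chr3:48188418-48188567 (minus strand): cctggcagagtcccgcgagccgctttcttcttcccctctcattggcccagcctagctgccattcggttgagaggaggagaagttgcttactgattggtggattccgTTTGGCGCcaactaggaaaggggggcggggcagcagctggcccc
RFC3 chr13:33817999-33818148 (plus strand): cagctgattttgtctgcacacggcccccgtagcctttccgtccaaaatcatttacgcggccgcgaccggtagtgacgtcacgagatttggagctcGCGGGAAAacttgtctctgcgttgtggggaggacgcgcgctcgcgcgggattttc
HELLS chr10:94545638-94545787 (plus strand): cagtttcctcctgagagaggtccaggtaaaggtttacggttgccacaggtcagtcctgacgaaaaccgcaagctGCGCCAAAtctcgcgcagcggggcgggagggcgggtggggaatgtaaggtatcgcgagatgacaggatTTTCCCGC

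Promoters with a CHR are shown for CDCA8 (borealin, of the chromosomal passenger complex), ESPL1, NCAPG and KIF15, drawn in the same way with the CHR in capitals, which starts at -23, -31, -35 and -35. In KIF15 the CHR directly follows an E2F site that starts at -43. CDCA8 rose by 1.35 ± 0.10 (adjusted p = 0.00106).
CDCA8 chr1:37692366-37692515 (plus strand): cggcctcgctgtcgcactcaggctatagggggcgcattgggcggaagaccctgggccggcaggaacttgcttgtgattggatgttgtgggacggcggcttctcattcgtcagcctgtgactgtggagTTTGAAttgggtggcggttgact
ESPL1 chr12:53268149-53268298 (plus strand): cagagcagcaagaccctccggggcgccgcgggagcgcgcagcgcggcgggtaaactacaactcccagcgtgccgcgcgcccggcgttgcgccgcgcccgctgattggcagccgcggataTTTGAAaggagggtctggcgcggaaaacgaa
NCAPG chr4:17810829-17810978 (plus strand): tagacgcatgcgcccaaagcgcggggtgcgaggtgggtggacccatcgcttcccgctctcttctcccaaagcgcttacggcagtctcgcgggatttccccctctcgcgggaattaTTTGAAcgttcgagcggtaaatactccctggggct
KIF15 chr3:44761644-44761793 (plus strand): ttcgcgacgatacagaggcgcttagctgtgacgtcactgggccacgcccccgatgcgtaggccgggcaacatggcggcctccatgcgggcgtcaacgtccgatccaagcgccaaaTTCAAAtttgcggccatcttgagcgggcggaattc

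Damage-response genes of arrest and apoptosis fell in part. Of 19 genes of arrest and feedback 7 fell (median -0.41), and of 14 genes of apoptosis 4 did (median -0.25). ZMAT3, an RNA-binding protein, had signals of 10.29 and 10.17 on the BJ arrays and 7.73 and 7.62 on the BJEL arrays and fell by 2.56 ± 0.10 (adjusted p = 0.000192). SPATA18, which acts in mitochondrial quality control, fell by 1.92 ± 0.15 (adjusted p = 0.00113), and the stress protein SESN1, an inhibitor of mTORC1, fell by 1.24 ± 0.18 (adjusted p = 0.00721). The death receptor FAS fell by 1.64 ± 0.13 (adjusted p = 0.00129), its relative TNFRSF10D, a decoy for TRAIL, fell by 1.93 ± 0.14 (adjusted p = 0.001), and the desmosomal protein PERP fell by 1.51 ± 0.12 (adjusted p = 0.00118). Against them, the BH3-only protein NOXA (PMAIP1), which is also induced by viral infection, had signals of 7.43 and 7.50 on the BJ arrays and 10.33 and 9.64 on the BJEL arrays and rose by 2.52 ± 0.23 (adjusted p = 0.00176), and the kinase PLK2 by 1.49 ± 0.14 (adjusted p = 0.00178). The remaining apoptosis target that fell, PHLDA3 (-1.05 ± 0.24, adjusted p = 0.0323), was not called without BJ replicate 1, BJEL replicate 1 or BJEL replicate 2 (adjusted p from 0.0625 to 0.137). In arrest and feedback 4 fell without BJ replicate 1 and 3 without BJEL replicate 2.

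**Figure D2:**
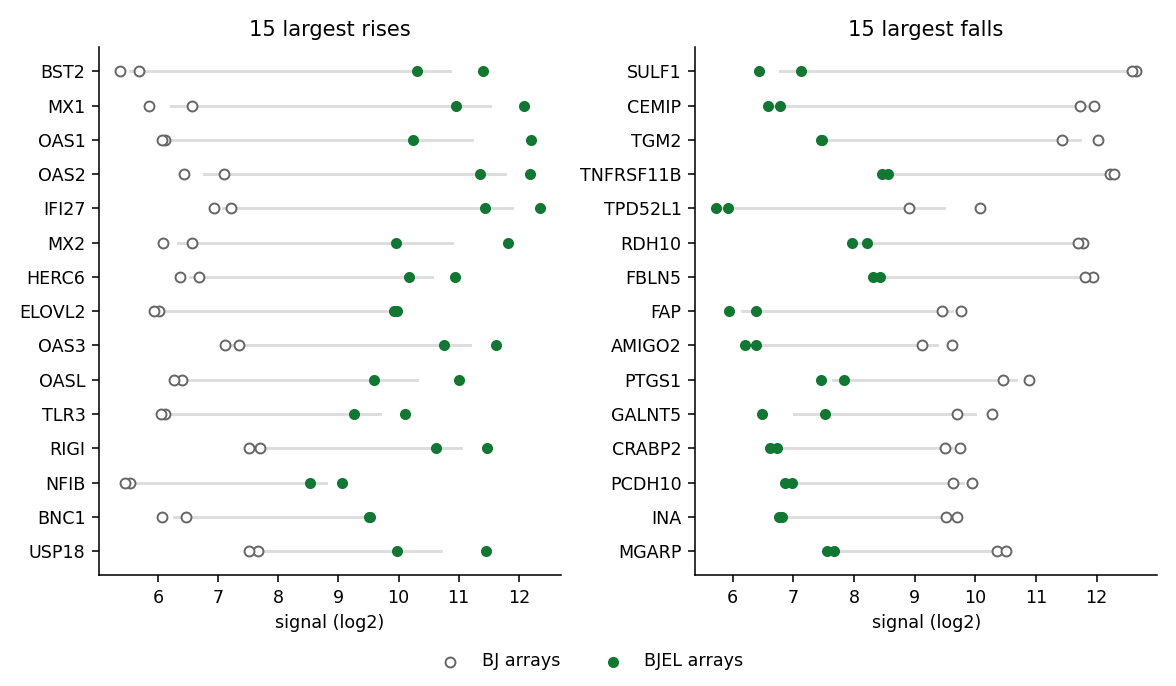
Log2 signal (horizontal axis) on each BJ array (open circles) and BJEL array (filled circles) for the 15 largest rises and the 15 largest falls (vertical axes) among genes called in every fit with 1 array left out and at or above the median level of 7.26, where gray lines join the means. In BST2 the signals lie at 5.69 and 5.37 in BJ and 11.40 and 10.30 in BJEL, and in SULF1 at 12.65 and 12.58 in BJ and 7.13 and 6.44 in BJEL.

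The largest rises were those of the interferon response. Among the 15 largest at median level or above, members of this response were BST2, MX1, OAS1, OAS2, IFI27, MX2, HERC6, OAS3, OASL, RIGI and USP18. Of the 10 measured OAS and IFIT genes 9 rose (median 2.13), and of 34 antiviral effectors 20 (median 2.07). OAS1, an oligoadenylate synthetase that activates RNase L, had signals of 6.11 and 6.06 on the BJ arrays and 12.20 and 10.24 on the BJEL arrays and rose by 5.14 ± 0.57 (adjusted p = 0.003). MX1, a dynamin-like GTPase that traps viral nucleocapsids, stood at 6.56 and 5.86 on the BJ arrays and 12.09 and 10.96 on the BJEL arrays. BST2 (tetherin) stood at 5.69 and 5.37 on the BJ arrays and 11.40 and 10.30 on the BJEL arrays. RSAD2 (viperin), which makes a chain-terminating nucleotide, stood at 4.93 and 4.97 on the BJ arrays and 11.50 and 9.94 on the BJEL arrays. In each of these genes the groups lay far apart and BJEL replicate 1 was the higher of the BJEL arrays.

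The same held across these lists. All 34 antiviral effectors read higher on BJEL replicate 1 than on BJEL replicate 2, by a median of 0.90, as did all 10 OAS and IFIT genes, by 0.83, and all 11 guanylate-binding proteins and PARPs, by 0.40, while over all genes 51.7% read higher on BJEL replicate 1, with a median of 0.01. Between the BJ arrays the antiviral list means were 7.93 and 7.72, and between the BJEL arrays 10.55 and 9.67. The share of cells and the RNA per cell behind such a difference cannot be told apart in bulk samples. Without BJEL replicate 1, 9 OAS and IFIT genes and 17 antiviral effectors rose. The methods' t-test called 2 of the 10 and 5 of the 34, among them MX1 and OAS2 (unadjusted p = 0.0251 and 0.0128), while OAS1, RSAD2, MX2 and OASL (unadjusted p = 0.119, 0.0853, 0.111 and 0.109) were not called by it.

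Sensors of viral RNA were among the rises. RIGI, which detects RNA with a 5′ triphosphate, had signals of 7.69 and 7.51 on the BJ arrays and 11.47 and 10.62 on the BJEL arrays and rose by 3.44 ± 0.27 (adjusted p = 0.00118). IFIH1 (MDA5), the sensor of long duplex RNA, rose by 3.69 ± 0.45 (adjusted p = 0.00391), the endosomal RNA receptor TLR3 by 3.60 ± 0.32 (adjusted p = 0.00167) and DDX60, of the same list, by 2.84 ± 0.15 (adjusted p = 0.000476). The DNA sensor CGAS rose by 1.37 ± 0.18 (adjusted p = 0.00462), whereas STING1, which acts after it, fell (-1.35 ± 0.28, adjusted p = 0.0231), though not without BJ replicate 1 or BJEL replicate 2. TLR4, the receptor of bacterial lipopolysaccharide, fell by 1.96 ± 0.19 (adjusted p = 0.00192). In all 8 of 20 sensors and adaptors rose and 2 fell (median 0.74), and 1 fell without BJ replicate 1 or BJEL replicate 2. By the methods' t-test 2 rose and 1 fell, and RIGI, IFIH1 and TLR3 were not called (unadjusted p = 0.0683, 0.113 and 0.0732).

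The interferons themselves and their receptors did not pass the test. Of the 14 measured genes limma and the methods' t-test each called 0, 3 had an unadjusted p under 0.05, and the median was -0.05. IFNB1, the interferon made by fibroblasts, had signals of 4.20 and 4.19 on the BJ arrays and 4.27 and 4.29 on the BJEL arrays, below the lowest quartile limit of 5.63, and the largest differences were those of the receptor chains IFNGR2 (-0.41 ± 0.13, adjusted p = 0.0862) and IFNGR1 (-0.36 ± 0.11, adjusted p = 0.0723). Among 20 JAK, STAT and IRF factors 1 rose and 1 fell (5% each, against 2.89% and 2.29% of all genes, with a median of 0.08). USP18, the ISG15 protease that shuts off the type I receptor, had signals of 7.67 and 7.51 on the BJ arrays and 11.45 and 9.98 on the BJEL arrays and rose by 3.12 ± 0.44 (adjusted p = 0.00628), though the methods' t-test did not call it (unadjusted p = 0.144), and the cytokine signaling suppressor SOCS2 fell by 1.78 ± 0.16 (adjusted p = 0.00164). IRF9 and IRF7, factors of interferon-dependent transcription, differed by 1.03 ± 0.34 (adjusted p = 0.0921) and 0.94 ± 0.19 (adjusted p = 0.022) and were not called; they are named after their values were seen. Without BJEL replicate 2 a further gene of the list rose.

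Downstream of these, the ADP-ribosyl transferases PARP9, PARP12 and PARP14 rose by 2.18 ± 0.34 (adjusted p = 0.00868), 2.21 ± 0.33 (adjusted p = 0.00773) and 2.26 ± 0.31 (adjusted p = 0.00602), and PARP9's partner ligase DTX3L by 1.91 ± 0.20 (adjusted p = 0.00272). Of the 11 guanylate-binding proteins and PARPs 4 rose (median 0.55). In class I antigen processing 4 of 15 genes rose (median 0.70). PSMB8, an immunoproteasome subunit, rose by 1.62 ± 0.25 (adjusted p = 0.00831), while TAP2 (1.36) was not called without BJ replicate 1, BJ replicate 2 or BJEL replicate 1, PSMB9 (2.20) not without BJ replicate 2 and PSME2 (1.12) not without BJ replicate 1, so that 2 genes were called without BJ replicate 2 and 7 without BJEL replicate 2. Of the 6 measured APOBEC3 deaminases, which mutate single-stranded DNA, APOBEC3B, APOBEC3D and APOBEC3G rose by 1.03, 1.27 and 1.88, and 0 were called without BJ replicate 1, 0 without BJ replicate 2 and 1 without BJEL replicate 1. The methods' t-test called 0 of the guanylate-binding proteins and PARPs, 0 genes of class I antigen processing and 0 APOBEC3 deaminases.

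Chemokines of the interferon type rose in 5 of 10 cases (median 0.99). CXCL11, a ligand of CXCR3, rose by 2.25 ± 0.30 (adjusted p = 0.00518). CXCL10, CCL5, CXCL16 and the death ligand TNFSF10 (TRAIL) were called at 1.94 to 2.86, but with BJ replicate 1 or 2 left out 1 member of the list was, and TNFSF10 was not called without BJELM replicate 1 or 2 either, and the methods' t-test called 0 of the 10. The signals of CCL5 lay far apart within BJEL, at 5.77 and 5.76 in BJ and 9.78 and 7.46 in BJEL. Among 17 interleukins and CXCR2 ligands the neutrophil attractant CXCL8 alone rose (5.88%, against 2.89% of all genes, with a median of 0.04). Its signals were 6.32 and 6.53 on the BJ arrays and 8.35 and 8.45 on the BJEL arrays, a difference of 1.98 ± 0.19 (adjusted p = 0.00205).

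An ISRE core, GAAANNGAAA on either strand, was present in 2.57% of all promoters, in 7.67% of those of genes that rose, in 2.88% of those that fell, and in 22 of the 42 interferon-list genes that rose (52.4%). Here too, members of the interferon lists that did not rise were not counted apart, so the last share does not tell rising from list membership. The core is shown in capitals in the 150 bases before the gene start of BST2, IFI27, IFI44L and HERC5, the last a ligase of the ubiquitin-like protein ISG15. In BST2 and in the first match of HERC5 overlapping cores form a longer run, and a further core of IFI44L lies before the stretch shown.
BST2 chr19:17405631-17405780 (minus strand): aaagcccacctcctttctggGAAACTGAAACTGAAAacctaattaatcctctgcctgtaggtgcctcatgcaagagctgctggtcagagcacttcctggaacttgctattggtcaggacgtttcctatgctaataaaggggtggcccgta
IFI27 chr14:94110586-94110735 (plus strand): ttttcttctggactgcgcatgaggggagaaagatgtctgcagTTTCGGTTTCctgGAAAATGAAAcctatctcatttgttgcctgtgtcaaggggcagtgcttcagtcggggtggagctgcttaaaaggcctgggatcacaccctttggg
IFI44L chr1:78620298-78620447 (plus strand): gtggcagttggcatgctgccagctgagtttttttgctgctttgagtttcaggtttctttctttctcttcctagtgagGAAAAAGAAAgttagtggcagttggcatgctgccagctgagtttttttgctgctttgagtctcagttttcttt
HERC5 chr4:88456969-88457118 (plus strand): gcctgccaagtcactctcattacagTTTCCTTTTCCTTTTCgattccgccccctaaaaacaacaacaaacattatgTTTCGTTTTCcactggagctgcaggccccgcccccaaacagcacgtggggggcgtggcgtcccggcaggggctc

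By the methods' t-test IFI27 and IFI44 were called and IFI44L and HERC5 were not (unadjusted p = 0.0648 and 0.101). IFI27 had signals of 7.22 and 6.94 on the BJ arrays and 12.35 and 11.43 on the BJEL arrays and rose by 4.81 ± 0.35 (adjusted p = 0.001). IFI44L stood at 5.07 and 5.03 on the BJ arrays and 11.22 and 10.07 on the BJEL arrays and its neighbor on chromosome 1, IFI44, at 5.47 and 5.64 on the BJ arrays and 10.25 and 9.86 on the BJEL arrays. HERC5 stood at 5.13 and 5.06 on the BJ arrays and 10.09 and 8.70 on the BJEL arrays. In all of them the BJEL arrays lay far above the BJ arrays, with BJEL replicate 1 the higher.

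**Figure D3:**
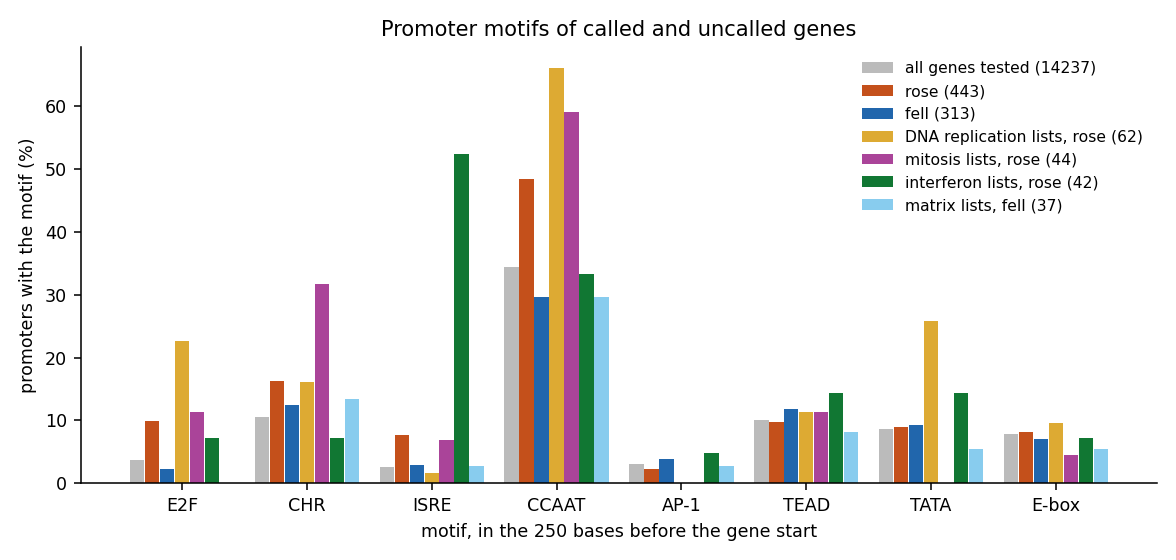
Share of promoters (vertical axis, %) that hold each motif (horizontal axis) in the 250 bases before the gene start, for all genes tested with a promoter and for the groups in the legend, whose sizes are in parentheses. The E2F site reaches 22.6% in replication genes that rose, the CHR 31.8% in mitotic genes that rose and the ISRE 52.4% in interferon-list genes that rose, against 3.75%, 10.6% and 2.57% of all promoters. List members that did not rise are not drawn as groups of their own.

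Other motifs were searched in the same windows. The CCAAT box, CCAAT, was in 34.4% of all promoters, 48.5% of those that rose, 29.7% of those that fell, and in 66.1% of replication and 59.1% of mitotic genes that rose. The TATA box, TATAAA, was in 8.59%, 9.03% and 9.27% of all, risen and fallen genes and in 25.8% of the replication group, which includes the histone genes. The AP-1 site, TGACTCA or TGAGTCA, was, in the same order, in 3.08%, 2.26% and 3.83%, the TEAD core GGAATG in 10%, 9.71% and 11.8%, the E-box CACGTG in 7.86%, 8.13% and 7.03%, and the CArG box of SRF in 1.17%, 2.03% and 2.24%. An E2F site and an ISRE core can share bases where the TTTC that begins the E2F site also ends the core.

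Many genes of the extracellular matrix fell. Of 24 measured genes of elastic fibers and microfibrils 12 fell (median -1.05), 8 of them by the methods' t-test. MFAP5, a microfibril component, had signals of 10.23 and 9.30 on the BJ arrays and 4.42 and 4.47 on the BJEL arrays and fell by 5.32 ± 0.29 (adjusted p = 0.000476). The methods' t-test did not call MFAP5 (unadjusted p = 0.0548). FBLN5, which helps tropoelastin onto microfibrils, stood at 11.94 and 11.81 on the BJ arrays and 8.32 and 8.43 on the BJEL arrays. The latent TGF-beta binding protein LTBP2 fell by 2.68 ± 0.12 (adjusted p = 0.000229), fibulin 1 (FBLN1) fell by 2.48 ± 0.21 (adjusted p = 0.00148), and the fibrillins FBN1 and FBN2 changed by -1.37 ± 0.13 (adjusted p = 0.00192) and -1.98 ± 0.20 (adjusted p = 0.00234). In each the BJEL arrays lay below the BJ arrays.

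Of 11 fibrillar collagens 2 fell (18.2%, against 2.29% of all genes; median -0.43), and all 11 were lower in BJEL. The fallen ones were COL1A1 (-1.51 ± 0.16, adjusted p = 0.00272) and COL1A2 (-1.71 ± 0.33, adjusted p = 0.0178), the latter not called without BJ replicate 1, BJEL replicate 1 or BJEL replicate 2 (adjusted p from 0.0757 to 0.106). Among 32 other collagens 4 fell (12.5%; median -0.25) and 29 were lower, including the basement membrane chains COL4A1 (-1.64 ± 0.25, adjusted p = 0.00815) and COL4A2 (-1.41 ± 0.16, adjusted p = 0.00306), which lie head to head and share a promoter, and COL6A3 (-1.54 ± 0.16, adjusted p = 0.00228); COL15A1 (-1.68 ± 0.32, adjusted p = 0.0182) was not called without BJEL replicate 1 or 2. The proteoglycans biglycan (BGN), lumican (LUM) and podocan (PODN) changed by -2.13 ± 0.25 (adjusted p = 0.00343), -2.17 ± 0.24 (adjusted p = 0.00306) and -2.80 ± 0.27 (adjusted p = 0.0021), among 5 of 13 of their family (median -0.87; 8 without BJ replicate 2 and 3 without BJEL replicate 2). Decorin (DCN) differed by -3.01 ± 0.47 (adjusted p = 0.00921) and was not called without BJ replicate 1 or BJEL replicate 2 (adjusted p = 0.0586 and 0.0531). By the methods' t-test 2 fibrillar collagens, 1 other collagen and 2 members of the proteoglycan family fell.

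Modifiers of polysaccharide chains held the largest falls among genes of at least median level. SULF1, which removes sulfate from heparan sulfate and so alters growth factor binding, had signals of 12.65 and 12.58 on the BJ arrays and 7.13 and 6.44 on the BJEL arrays and fell by 5.83 ± 0.22 (adjusted p = 0.000156). CEMIP, which degrades hyaluronan, stood at 11.96 and 11.73 on the BJ arrays and 6.78 and 6.58 on the BJEL arrays and fell by 5.17 ± 0.12 (adjusted p = 4.96e-05). SULF2, with the same activity as SULF1, fell by 1.88 ± 0.13 (adjusted p = 0.000887), and the proteoglycan cores glypican 1 (GPC1) and syndecan 2 (SDC2) changed by -1.52 ± 0.16 (adjusted p = 0.00244) and -1.39 ± 0.16 (adjusted p = 0.00327). In this list 7 of 20 genes fell (median -0.22), and the member that rose was HMMR (1.27 ± 0.15, adjusted p = 0.0035), a hyaluronan receptor that is also a spindle protein. Of the 19 matricellular proteins 4 fell (median -0.51): CCN3 (-2.44 ± 0.17, adjusted p = 0.000954), thrombospondin 1 (THBS1, -1.30 ± 0.08, adjusted p = 0.00066), periostin (POSTN) at 11.26 and 10.15 in BJ and 6.97 and 5.91 in BJEL, and versican (VCAN, -1.60 ± 0.35, adjusted p = 0.0272), of which periostin was not called without BJ replicate 1 (adjusted p = 0.0512) nor versican without BJEL replicate 1 or 2.

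Single proteases and protease inhibitors fell, with 7 of 57 matrix proteases (12.3%, median -0.20) and 3 of 31 serpins (9.68%, median -0.07), against 2.29% of all genes. FAP, the fibroblast activation protein, had signals of 9.77 and 9.45 on the BJ arrays and 6.38 and 5.94 on the BJEL arrays and fell by 3.45 ± 0.26 (adjusted p = 0.00106). Gelatinase A (MMP2) fell by 2.34 ± 0.18 (adjusted p = 0.00117), the inhibitor TIMP3 fell by 1.62 ± 0.08 (adjusted p = 0.00035) and the secreted protease HTRA1 fell by 1.52 ± 0.15 (adjusted p = 0.00211), while ADAMTSL1, a protease-like protein without catalytic domain, rose by 1.44 ± 0.16 (adjusted p = 0.00316). SERPINF1, the anti-angiogenic factor PEDF, had signals of 9.15 and 9.38 on the BJ arrays and 5.31 and 5.36 on the BJEL arrays, and the protease nexin SERPINE2 fell by 1.88 ± 0.13 (adjusted p = 0.000877). TGM2, a transglutaminase that cross-links matrix proteins, stood at 12.03 and 11.43 on the BJ arrays and 7.48 and 7.46 on the BJEL arrays and fell by 4.26 ± 0.21 (adjusted p = 0.000312).

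Some laminins and integrins fell as well. The laminin chains LAMA2 and LAMA4 changed by -2.72 ± 0.12 (adjusted p = 0.000229) and -3.72 ± 0.13 (adjusted p = 0.000156), and nidogen 2 (NID2), which links laminin to collagen IV, fell by 2.80 ± 0.19 (adjusted p = 0.000783); with LAMB1 (-1.08, under the fold minimum without BJ replicate 1 or BJEL replicate 2) they were 4 of 12 in their list (median -0.63). Of 25 integrins 5 fell (median -0.17), 1 of them by the methods' t-test. The collagen receptor chain ITGA2 fell by 1.56 ± 0.22 (adjusted p = 0.0064) and ITGB5, a chain of a vitronectin receptor, fell by 1.42 ± 0.13 (adjusted p = 0.00164), and these were the 2 integrins called without BJEL replicate 1 or 2; ITGA11, ITGA8 and ITGAV differed by -2.19, -1.63 and -1.13.

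Fibroblast identity genes fell in part. Of 14 fibroblast markers 8 fell (median -1.49), 6 of them by the methods' t-test. All 14 lay at or above the median level in BJ and 12 in BJEL. The fallen markers FBLN1, LUM and COL6A3 are also members of the matrix lists above, so these falls are not separate from those. S100A4, a calcium-binding protein of fibroblasts, had signals of 9.63 and 8.96 on the BJ arrays and 6.01 and 6.34 on the BJEL arrays and fell by 3.12 ± 0.23 (adjusted p = 0.001). PDGFRA, the alpha receptor of platelet-derived growth factor, stood at 8.55 and 8.49 on the BJ arrays and 4.88 and 5.01 on the BJEL arrays, and PDGFRB fell by 1.46 ± 0.20 (adjusted p = 0.00602). The 2 PDGF receptors belong to a separate list of 18 mesenchymal surface markers. Its further called members CD248, DPP4, ANPEP and CDH11 stood at -1.86 to -1.05, giving 6 of 18 (median -0.36), 2 of them by the methods' t-test. Of these, CD248, DPP4 and CDH11 were not called without BJEL replicate 1, ANPEP and DPP4 not without BJ replicate 2, and CD248 not without BJ replicate 1 or BJEL replicate 2. PRRX1, a mesenchymal homeobox factor, had signals of 11.39 and 11.43 on the BJ arrays and 9.28 and 9.47 on the BJEL arrays and fell by 2.04 ± 0.11 (adjusted p = 0.000427), and SNAI1, which represses E-cadherin, fell by 1.21 ± 0.11 (adjusted p = 0.00156). In all 6 of 31 mesenchymal transcription factors fell (median -0.29), of which 2 were called without BJ replicate 1 or BJEL replicate 1. TBX15, the member that rose, was not called without BJEL replicate 1.

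HOX genes, which record the body position a fibroblast came from, gave no call by limma or by the methods' t-test among 27 measured, with 6 at an unadjusted p under 0.05 and a median of -0.08. The largest differences were those of HOXD10 (-0.84 ± 0.15, adjusted p = 0.014) and HOXB2 (-0.61 ± 0.09, adjusted p = 0.00642), and 1 was called without BJ replicate 1. Of the 22 smooth muscle genes and SRF targets 6 fell (median -0.38), led by the actin regulators SYNPO2, at 8.73 and 8.52 in BJ and 5.60 and 5.65 in BJEL, and LMOD1 (-2.72 ± 0.28, adjusted p = 0.00246) and by caldesmon (CALD1, -1.28 ± 0.15, adjusted p = 0.00346), and 3 fell without BJ replicate 1, on which all 22 members read higher than on BJ replicate 2. ACTG2, a smooth muscle actin, rose in that list, though not without BJ replicate 2, BJEL replicate 1 or BJEL replicate 2. The methods' t-test called 1 fall and 0 rises in that list. Among 67 cadherins and protocadherins 5 fell (7.46%, against 2.29% of all genes, with a median of -0.18). They include PCDH10 at 9.94 and 9.63 in BJ and 6.98 and 6.86 in BJEL and CDH6 (-1.47 ± 0.11, adjusted p = 0.00113). Without BJEL replicate 1, 3 of the list were called.

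**Figure D4:**
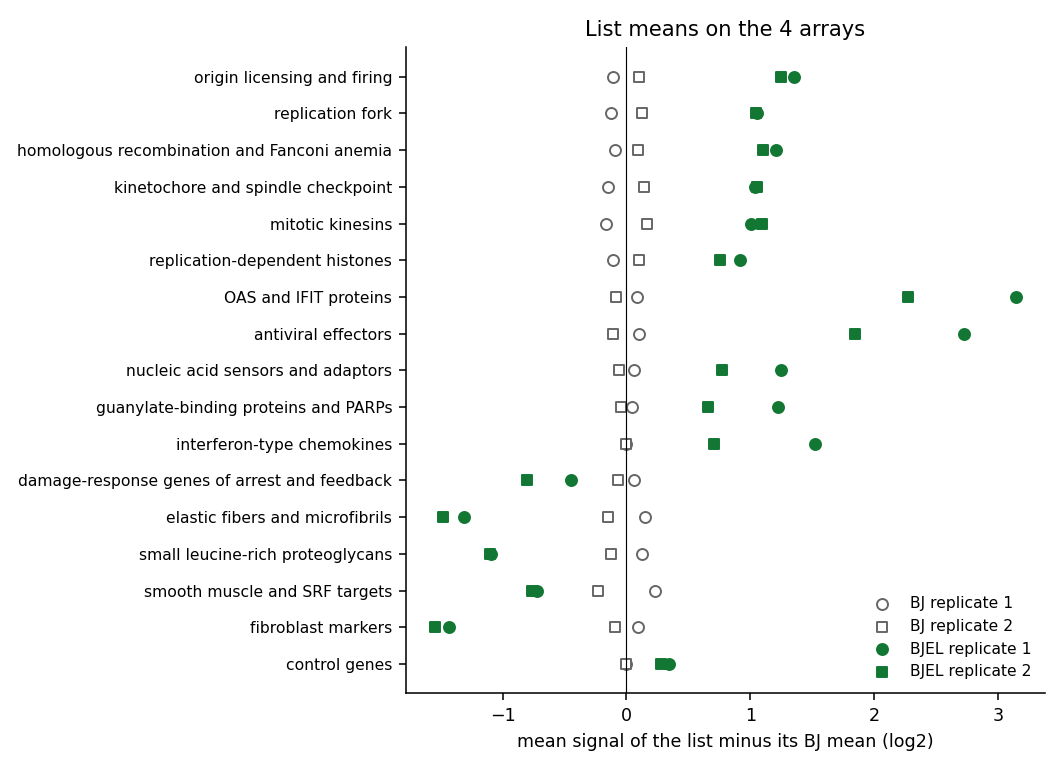
Mean log2 signal of each gene list (vertical axis) on the 4 arrays, minus the mean of the BJ arrays (horizontal axis, log2), where circles are replicate 1, squares replicate 2, open symbols BJ and filled symbols BJEL. The 6 replication, repair and mitotic lists at the top lie near 1 on both BJEL arrays, the 5 interferon-related lists under them lie apart between the BJEL replicates, with antiviral effectors at a median difference of 0.90 between them, and the matrix lists drawn lie below 0.

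Markers of other cell types were also examined. None of 10 endothelial, 9 leukocyte, 6 melanocyte and 6 pluripotency markers was called by limma or by the methods' t-test, with 1 gene per list at an unadjusted p under 0.05, and only 1 leukocyte and 1 melanocyte marker lay at or above the median level in BJ and in BJEL. The pluripotency markers POU5F1, NANOG and TDGF1 were not among the genes measured, so the list says nothing about them. Of 9 epithelial markers 4 lay at or above it in both lines and KRT7, a simple epithelial keratin, fell by 1.54 ± 0.13 (adjusted p = 0.00148), and 2 of the list were called when BJELM replicate 1 or 2 was left out. STMN2, a microtubule regulator listed as a neural marker, was the sole called gene among 9 of that list, with signals of 10.51 and 9.68 on the BJ arrays and 4.92 and 4.96 on the BJEL arrays. The methods' t-test did not call STMN2 (unadjusted p = 0.0504). The control genes gave 0 calls of 11 by limma and by the methods' t-test, with 6 at an unadjusted p under 0.05 and a median of 0.33, the largest differences being those of HPRT1 (0.90 ± 0.20, adjusted p = 0.0272) and B2M (0.70 ± 0.13, adjusted p = 0.018), and 1 was called without BJ replicate 2.

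Growth factor signaling changed at single ligands, receptors and binding proteins. In the TGF-beta and BMP list 6 of 39 genes fell (median -0.23). The ligand TGFB1 fell by 1.25 ± 0.15 (adjusted p = 0.00343) while the ligand TGFB2 had signals of 9.58 and 8.98 on the BJ arrays and 10.86 and 10.88 on the BJEL arrays and rose by 1.59 ± 0.22 (adjusted p = 0.00622). Targets of the pathway that fell were TGFBI (-1.65 ± 0.22, adjusted p = 0.00518) and the BMP-responsive inhibitors of bHLH factors ID1 (-1.19 ± 0.09, adjusted p = 0.0012) and ID3 (-1.20 ± 0.12, adjusted p = 0.00217). Without BJELM replicate 1 or 2, 2 genes of the list rose in place of 1. In the WNT pathway 2 of 55 rose (3.64%, against 2.89% of all genes) and 3 fell (5.45%, against 2.29%), with a median of -0.11. The target factor LEF1 rose by 1.92 ± 0.11 (adjusted p = 0.000519) and the secreted antagonist SFRP1 by 1.27 ± 0.13 (adjusted p = 0.00261). The ligand WNT5A fell by 1.62 ± 0.15 (adjusted p = 0.0019) along with the receptors FZD7 (-1.18 ± 0.16, adjusted p = 0.00571) and FZD4, the last not called without BJ replicate 1, BJEL replicate 1 or BJEL replicate 2.

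Of the growth factors that fibroblasts make for epithelia, FGF7 had signals of 7.16 and 7.23 on the BJ arrays and 4.59 and 4.43 on the BJEL arrays and fell by 2.69 ± 0.09 (adjusted p = 0.000156). With both PDGF receptors FGF7 made 3 of 43 (6.98%, against 2.29% of all genes, with a median of -0.13). HBEGF, a ligand of the EGF receptor, rose by 1.92 ± 0.15 (adjusted p = 0.00113), 1 of 16 in its family (6.25%, against 2.89% of all genes), and 2 did so without BJELM replicate 1 or 2. FLT1, a VEGF receptor and decoy, fell by 1.89 ± 0.15 (adjusted p = 0.00114) and KITLG, the KIT ligand, fell by 1.60 ± 0.11 (adjusted p = 0.000779), the 2 of 16 in the list of VEGF and angiopoietins (12.5%, median -0.33). In the IGF axis 6 of 15 fell (median -0.28), among them the receptor IGF1R (-1.39 ± 0.15, adjusted p = 0.00269), IGFBP7 (-2.28 ± 0.23, adjusted p = 0.00234) and IGFBP4 (-1.30 ± 0.14, adjusted p = 0.00249); the binding protein genes IGFBP2, IGFBP3 and IGFBP5 differed by -2.22, -2.37 and -3.19 but were not called without BJ replicate 1 or BJEL replicate 2, which left 3 falls. IGF2BP3, an oncofetal RNA-binding protein of IGF2 messenger RNA, rose by 1.30 ± 0.13 (adjusted p = 0.00234).

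Guidance and contact signals fell in 5 of 66 semaphorins, plexins, ephrins and slits (7.58%, against 2.29% of all genes, with a median of -0.16). They include SEMA5A (-2.14 ± 0.16, adjusted p = 0.001) and the semaphorin receptor PLXND1 (-1.69 ± 0.13, adjusted p = 0.00112), while the ephrin EFNA5 rose by 1.45 ± 0.15 (adjusted p = 0.00234). In the Notch pathway NOTCH3 fell by 1.49 ± 0.21 (adjusted p = 0.00595) and its ligand JAG1 differed by -1.77 ± 0.27 (adjusted p = 0.00874), a call not made without BJEL replicate 1, and these were the 2 of 21 called. The methods' t-test called 0 of the 21. YAP and TEAD targets gave 0 calls of 15 by limma and by the methods' t-test, although 9 had an unadjusted p under 0.05 and the median was -0.36; CCN2 stood just under the fold minimum (-0.98 ± 0.15, adjusted p = 0.00913), and 1 was called without BJ replicate 2 or BJEL replicate 1. Among 21 immediate-early factors the ERK phosphatase DUSP6 alone was called (-1.35 ± 0.24, adjusted p = 0.0135), so that 4.76% fell, against 2.29% of all genes. That call was not kept without BJ replicate 1 or BJEL replicate 2, where DUSP6 stood at -1.11 in both fits.

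In membrane transport the share of genes that fell lay near that of all genes. Of 329 solute carriers 11 fell (3.34%, against 2.29% of all genes) and 3 rose (0.912%, against 2.89%; median -0.04), and of 170 ion channels 4 fell (2.35%) and 1 rose (0.588%; median -0.09). SLC38A11, an amino acid transporter, had signals of 9.56 and 9.85 on the BJ arrays and 4.63 and 4.31 on the BJEL arrays and fell by 5.23 ± 0.15 (adjusted p = 7.95e-05), and SLC6A6, which carries taurine, fell by 2.20 ± 0.12 (adjusted p = 0.00046). SLC39A8, an importer of zinc and manganese, stood at 5.82 and 6.09 on the BJ arrays and 8.72 and 8.20 on the BJEL arrays and rose by 2.50 ± 0.24 (adjusted p = 0.00192). CACNA1C, the pore of the L-type calcium channel, fell by 1.13 ± 0.08 (adjusted p = 0.000976). The solute carriers that rose numbered 1 without BJEL replicate 1 and 8 without BJEL replicate 2, and KCNT2, the ion channel that rose, was not called without BJ replicate 1, BJ replicate 2 or BJEL replicate 1.

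Some genes of prostaglandin synthesis fell. PTGS1, the constitutive cyclooxygenase, had signals of 10.46 and 10.88 on the BJ arrays and 7.46 and 7.84 on the BJEL arrays and fell by 3.02 ± 0.22 (adjusted p = 0.00104), and PTGS2, the inducible enzyme, fell, with signals of 11.35 and 10.87 in BJ and 8.33 and 6.94 in BJEL, though not without BJ replicate 1 (adjusted p = 0.0881), BJ replicate 2 or BJEL replicate 2 (adjusted p = 0.0618). The prostaglandin importer SLCO2A1 fell by 1.53 ± 0.09 (adjusted p = 0.000634), PTGIS, the prostacyclin synthase, differed by -2.04 ± 0.46 (adjusted p = 0.0308), a call not made without BJEL replicate 1 or 2, and the prostaglandin E2 receptor PTGER2 rose by 1.42 ± 0.13 (adjusted p = 0.00164). These were the called genes among 25 in the list (median -0.19), in which 2 fell without BJEL replicate 2. The muscarinic receptor CHRM2, at 9.34 and 8.96 in BJ and 5.56 and 5.48 in BJEL, fell by 3.63 ± 0.15 (adjusted p = 0.00022).

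In lipid metabolism ELOVL2, which elongates polyunsaturated fatty acids, had signals of 6.01 and 5.94 on the BJ arrays and 9.97 and 9.93 on the BJEL arrays and rose by 3.98 ± 0.10 (adjusted p = 6.58e-05). ELOVL7 (1.17 ± 0.21, adjusted p = 0.0146) and the sterol regulator INSIG1 (1.22 ± 0.21, adjusted p = 0.0127), the only sterol gene called of 18 (median 0.39), were not called without BJ replicate 1, BJ replicate 2 or BJEL replicate 1. In retinoid metabolism, named for genes of the largest falls, RDH10, which makes retinaldehyde, stood at 11.77 and 11.70 on the BJ arrays and 7.97 and 8.22 on the BJEL arrays, the retinaldehyde oxidase ALDH1A1 at 11.34 and 10.61 on the BJ arrays and 4.74 and 4.59 on the BJEL arrays, and the retinoic acid binding protein CRABP2 fell by 2.95 ± 0.13 (adjusted p = 0.000229). ALDH1A1 fell by 6.31 ± 0.23 (adjusted p = 0.000156), the largest fall of all genes. Enzymes of nucleotide synthesis rose in 3 of 21 cases (median 0.48), namely PPAT (1.28 ± 0.18, adjusted p = 0.00617), UMPS (1.09 ± 0.09, adjusted p = 0.00134) and SHMT1 (1.10 ± 0.09, adjusted p = 0.00129). Glycolysis and hypoxia genes had 1 rise and 1 fall among 25 (4% each, against 2.89% and 2.29% of all genes, with a median of 0.14). The carbonic anhydrase CA12 stood at -1.66 ± 0.11 (adjusted p = 0.000734) and the enolase ENO2 at 1.16, the latter called in no fit that left out a BJ or BJEL array. NRF2 and antioxidant genes gave 0 calls of 23 by limma and by the methods' t-test, with 7 at an unadjusted p under 0.05 and the heme oxygenase HMOX1 at -0.76 ± 0.20 (adjusted p = 0.0477); 1 fell without BJ replicate 2.

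Of 25 Polycomb genes 4 rose (16%, against 2.89% of all genes; median 0.11): SCML2 by 2.12 ± 0.15 (adjusted p = 0.001), the PRC2 accessory protein MTF2 by 1.59 ± 0.10 (adjusted p = 0.000734), SCML1 by 1.19 ± 0.09 (adjusted p = 0.001), and the methyltransferase EZH2 (1.07 ± 0.14, adjusted p = 0.00469), which was under the fold minimum without BJ replicate 1. Among 17 genes of DNA methylation HELLS was the call (5.88%, against 2.89% of all genes), with 2 called without BJ replicate 2 or BJEL replicate 2. Among 24 SWI/SNF and CHD remodelers limma and the methods' t-test called 0, with 11 at an unadjusted p under 0.05 and CHD7 at 0.94 ± 0.09 (adjusted p = 0.00183). At the nuclear envelope 3 of 13 lamina genes rose (23.1%; median 0.22) and 1 fell. LMNB1, the lamin that is lost in senescent cells, rose by 1.26 ± 0.12 (adjusted p = 0.00201), LBR by 1.20 ± 0.10 (adjusted p = 0.00128) and TMPO by 1.15 ± 0.13 (adjusted p = 0.00316), the last under the fold minimum without BJ replicate 1, whereas SYNE1, which ties nuclei to actin, fell by 1.14 ± 0.10 (adjusted p = 0.00173).

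Zinc finger genes of chromosome 19, most of them KRAB repressors in clusters that arose by duplication, rose in 21 of 233 cases (9.01%; median 0.26), against 11 of 247 zinc finger genes on other chromosomes (4.45%) and 10 of 1075 other genes of chromosome 19, of which 13 fell. ZNF730 had signals of 7.40 and 7.85 on the BJ arrays and 9.84 and 10.32 on the BJEL arrays and rose by 2.45 ± 0.21 (adjusted p = 0.0014), ZNF93 rose by 2.14 ± 0.14 (adjusted p = 0.000734), ZNF675 by 2.04 ± 0.28 (adjusted p = 0.00596) and ZNF826P, annotated as a pseudogene, by 1.94 ± 0.19 (adjusted p = 0.00201). Probes of close paralogs may share signal, so the identity of single members is uncertain. Among 16 BCL2 family genes PMAIP1 was the call (6.25%, against 2.89% of all genes).

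Genes that moved between extremes were sought by rule, as those that went from the lowest quartile of all levels, below 5.63, in one line to the highest quartile, above 8.93, in the other. There were 11. Those that rose, BST2, HERC5, IFI44, IFI44L and RSAD2, all belong to the interferon response. Those that fell were ALDH1A1, MFAP5, SERPINF1, SLC38A11, STMN2 and CHRM2, which are an enzyme, matrix and secreted proteins, a transporter, a cytoskeletal protein and a receptor. STMN2 fell by 5.15 ± 0.25 (adjusted p = 0.000312) and SERPINF1 fell by 3.93 ± 0.16 (adjusted p = 0.00021).

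There remained large changes outside the lists. NFIB, a transcription factor of the nuclear factor I family, had signals of 5.54 and 5.46 on the BJ arrays and 9.06 and 8.53 on the BJEL arrays and rose by 3.29 ± 0.27 (adjusted p = 0.00134), and BNC1, a zinc finger protein of keratinocytes and germ cells, by 3.24 ± 0.15 (adjusted p = 0.000242). TNFRSF11B (osteoprotegerin), the decoy receptor of RANKL, stood at 12.22 and 12.29 on the BJ arrays and 8.56 and 8.47 on the BJEL arrays and fell by 3.74 ± 0.16 (adjusted p = 0.00022). TPD52L1 fell by 3.66 ± 0.36 (adjusted p = 0.00206), the adhesion protein AMIGO2 fell by 3.07 ± 0.18 (adjusted p = 0.000551), the glycosyltransferase GALNT5 fell by 2.98 ± 0.36 (adjusted p = 0.00387), the neuronal intermediate filament INA fell by 2.82 ± 0.19 (adjusted p = 0.000866) and MGARP, a mitochondrial protein, fell by 2.81 ± 0.17 (adjusted p = 0.000634). In TPD52L1 the BJ arrays lay apart, at 10.07 and 8.91, and both were above the BJEL arrays.

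**Figure D5:**
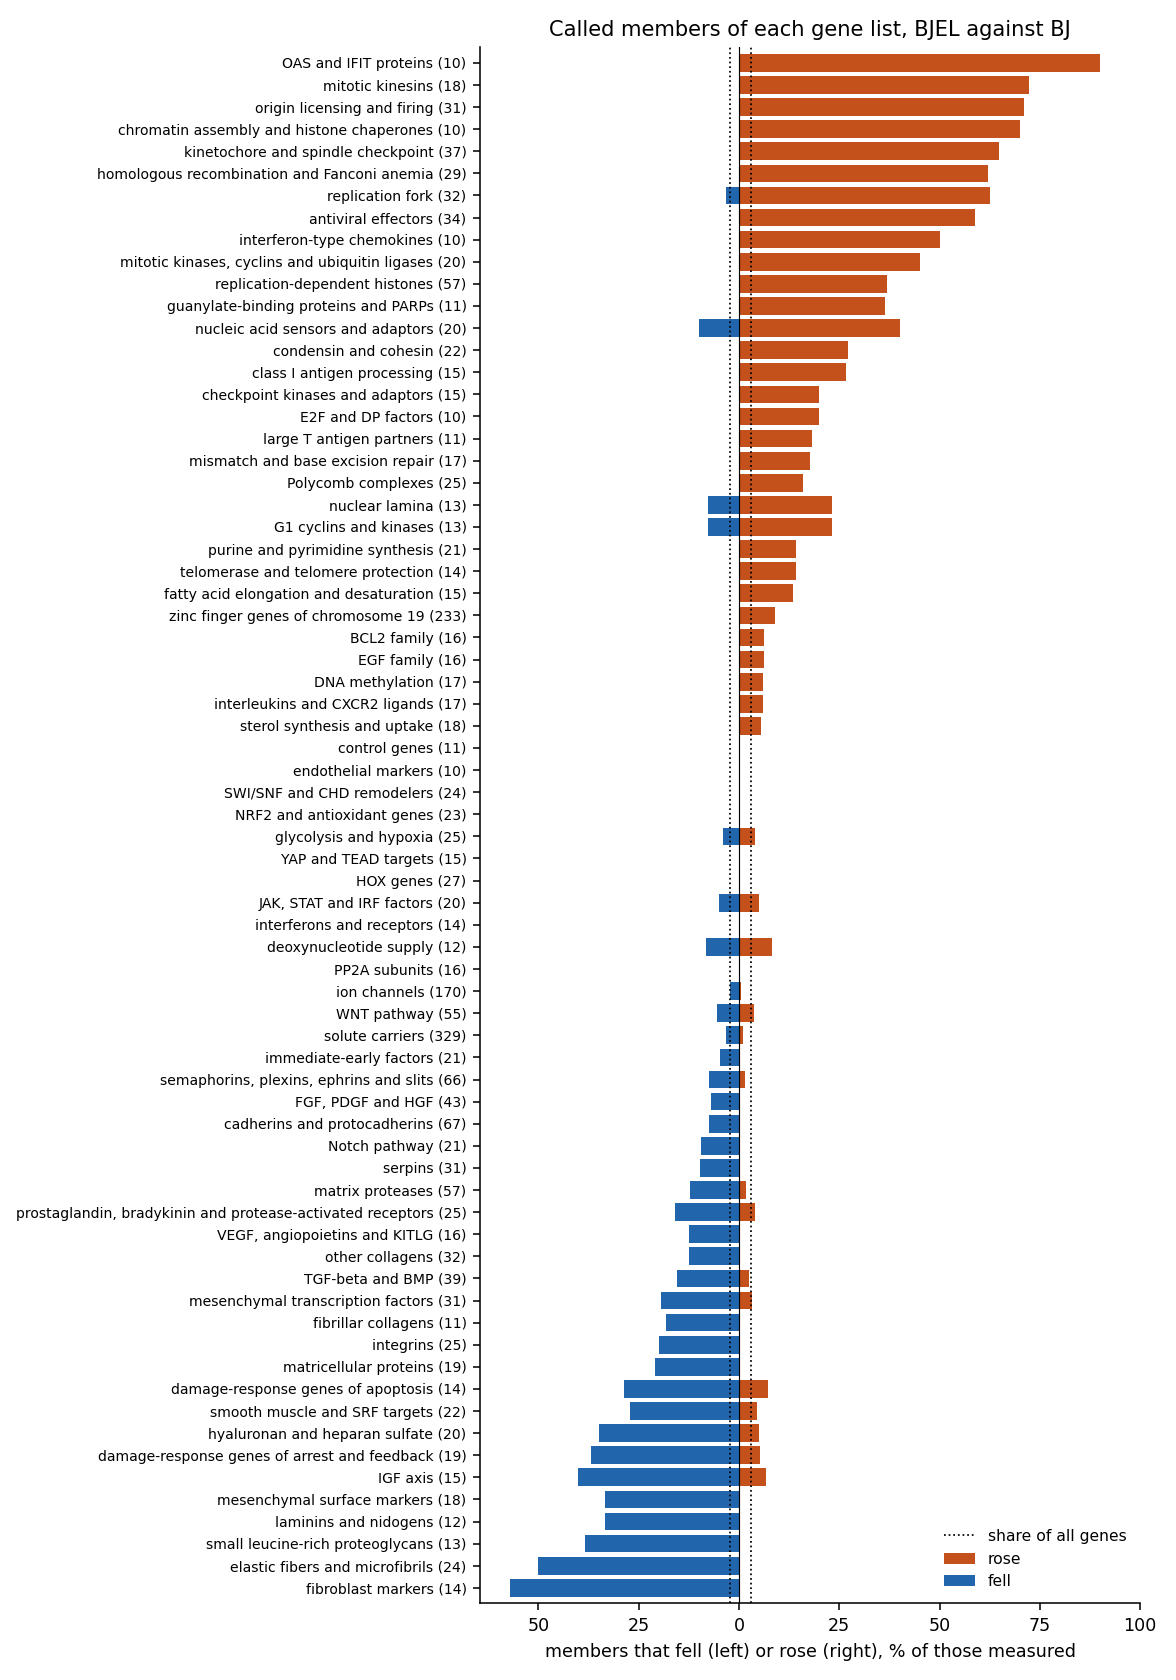
Share of the measured members of each gene list (vertical axis, number measured in parentheses) that rose (to the right, orange) or fell (to the left, blue) in BJEL against BJ (horizontal axis, %), for lists with at least 10 measured genes, where dotted lines mark the shares of all genes, 2.89% and 2.29%. OAS and IFIT genes, mitotic kinesins and origin licensing lie at the top, with 9 of 10, 13 of 18 and 22 of 31 rising, and fibroblast markers and elastic fibers at the bottom, with 8 of 14 and 12 of 24 falling.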

How the data were processed

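Total RNA of BJ, BJEL and BJELM cells was hybridised to 6 Affymetrix Gene 1.0 ST arrays, 2 per line. The authors deposited log2 signals from RMA with its default settings; the submitters' processing notes name Affymetrix Expression Console 1.3.1. RMA corrects background, quantile-normalises the arrays, summarises each probe set from its probes and compresses differences of dim probe sets. The table holds 33297 probe sets with 0 missing values and 0 pairs of identical arrays. An array has no count depth.

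Each gene was taken from its 1-symbol probe set of highest mean across the 6 arrays (18417 genes; 1754 probe sets with several symbols and 12083 not listed were left out of the gene table). Symbols and chromosomes follow RefSeq on GRCh38.p14, to which 18389 genes were matched by their Entrez number. Line means were fitted to all 6 arrays with limma 3.58.1 in R 4.3.3 without further terms (3 residual degrees of freedom, prior 3.13), with two-sided moderated tests and Benjamini-Hochberg adjustment over all genes. A gene was called at an adjusted p under 0.05 and at least 2-fold. The script was tested on simulated data.

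The comparison, its 78 gene lists and the rule for named genes were chosen with earlier results of these data known, so list counts are descriptions. The rule names TERT, RB1, MYC and a gene not reported here, the 15 largest rises and falls at or above the median level, genes that move between the lowest and highest quartiles of levels, and up to 4 members of each list with the largest change among those called in every fit that leaves out 1 array, or 2 members where there were none. Where a count was 5 or fewer, other members are named after their values were seen. Alternatives left out each array, fitted BJ and BJEL alone or with the replicate number as a block, renormalised, filtered or changed thresholds. A further alternative was the methods' t-test, here a plain t-test for unequal variances and not the study's modified form. Promoters of RefSeq were searched for motifs by exact match.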

Additional observations from a re-analysis of the deposited data

How the results depend on the processing

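Only 2 arrays per line limit these results, and signals give no depth; dim genes have no fixed floor here. Thresholds and the test moved the counts most. Without a fold minimum 3228 genes were called (1915 rising and 1313 falling), and with a 1.5-fold minimum 2110 (1232 and 878). The methods' t-test called 465 genes at an unadjusted p under 0.05 (231 and 234), all of them among the 954 called by limma, and after Benjamini-Hochberg adjustment it called 0, with 0 rising and 0 falling. Of the 216 genes named by rule, 76 were called by limma but not by this t-test. Among lists with falls it called 4 of 4 for laminins and nidogens and 6 of 7 for hyaluronan and heparan sulfate. It called 1 of 6 for smooth muscle and SRF targets and 1 of 5 for integrins. Leaving out 1 array, 718 to 1026 genes were called, 395 to 598 rising and 323 to 472 falling.

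The other alternatives (BJ and BJEL arrays alone, quantile normalization, median centring, an intensity trend with a robust prior, filters on dim genes, the mean of a gene's probe sets, every probe set, and an adjusted p under 0.01) gave 726 to 1047 calls, and after quantile normalization 494 rose and 458 fell, 900 of the 954 among them. No result reversed in any alternative. With the replicate number as a block 993 genes were called (564 and 429), including all 954. With the block 8 of 78 lists had more rises, 2 had more falls and 0 had fewer of either; antiviral effectors went from 20 to 24 rises and JAK, STAT and IRF factors from 1 to 2. Deviations of same-numbered arrays correlated at 0.448, 0.481 and 0.553 across genes for the pairs of lines, a hint that the numbers pair the arrays, but only 2 numbers are shared and no label says what they mark, so the block stayed an alternative.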

Other observations

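Beyond the genes with a symbol of their own, 1047 of all 33297 probe sets were called when every probe set was tested. Of these 79 are not listed with a gene, 50 of them rising, and 57 are listed with several genes, 43 of them rising. Of 32 called genes with more than 1 probe set, 19 had another probe set called in the same direction, 13 had no other called, and 0 had another called in the opposite direction.

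The calls lay on all autosomes, from 3.36% of the measured genes of chromosome 19 to 7.76% of those of chromosome 4. Chromosome 22 had 13 rises and 2 falls among 423 genes, chromosome 6, which holds most histone genes, 43 rises and 21 falls among 977, chromosome 12 had 26 rises and 39 falls among 982, and chromosome 8 had 15 rises and 23 falls among 638. The median difference of a chromosome's genes lay between -0.047 on chromosome 22 and 0.018 on chromosome 6.

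Between the BJ replicates 58.3% of all genes read higher on replicate 1, including 5 of 31 origin licensing genes (median -0.19), 7 of 37 kinetochore genes and 0 of 18 mitotic kinesins, but 27 of 34 antiviral effectors (median 0.17), 17 of 20 nucleic acid sensors and all 14 fibroblast markers. The part of these differences in the comparison of the lines was not tested.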
